A study of Mus musculus with 8 samples.

Results

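Lgr5, Ascl2, Smoc2, Axin2, Lrig1, Sox9, Ephb2, Ephb3, Rnf43 and Cd44 are genes of the stem cells at the base of the intestinal crypt, targets of the Wnt signal that maintains those cells, or both. They were taken by gene symbol from tables of 24346 gene symbols, which held all 10. Colon epithelial cells of untreated C57BL/6J mice were sequenced in 8 libraries, for 3 mutant genotypes and wild-type, with 1 male and 1 female library each. St6galnac6-/- and B3gnt7-/- mice lack the sialyltransferase St6galnac6 and the N-acetylglucosaminyltransferase B3gnt7, and B3galt5D116A mice carry a D116A substitution in the galactosyltransferase B3galt5. Every library was labelled as primary epithelial cells of the colon, and the labels do not give age, a pooling of animals or how the cells were isolated. Each library has its own pairing of genotype and sex, so libraries did not share animals. With 1 library per genotype and sex, the spread behind each p-value holds differences between animals or pools together with technical ones.

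In the crypt, Wnt ligands bind Frizzled receptors with Lrp5 or Lrp6 and stabilise β-catenin, which then acts with transcription factors of the TCF family. R-spondins strengthen the signal through Lgr4 and Lgr5 by removing the ubiquitin ligases Rnf43 and Znrf3, which otherwise clear Frizzled from the cell surface. Axin2 and Rnf43 are themselves Wnt targets and damp the signal, so that their transcripts are widely read as measures of it. The mouse colon has no Paneth cells, and secretory cells deep in the crypt stand beside the stem cells instead.

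Values are FPKM as deposited, a count of fragments divided by transcript length and library size, and where a pair of values is given for a genotype the male library comes before the female one. Their sums ran from 518482 to 639537 per library, and the depth, known only relative to the wild-type male library, from 1 to 1.45. Both wild-type libraries were the shallowest, at 1 and 1.05, and the mutant libraries stood at 1.18 to 1.45. Depth and mutant genotype therefore cannot be told apart where all mutant libraries differ from wild-type. The targeted transcripts were lowest in their own mutants without being absent, at 218 and 232 FPKM of St6galnac6 in St6galnac6-/- mice against 368 and 343 FPKM in wild-type, and at 68.8 and 142 FPKM of B3gnt7 in B3gnt7-/- against 215 and 189.8 FPKM in wild-type. A substitution in B3galt5 cannot be checked by its level. All 8 epithelial markers were abundant, with summed levels of 9246 to 12314 FPKM, and Epcam stood between 864 and 953 FPKM. The B3gnt7-/- female library stood apart in stroma markers. Of 7 markers, 2 averaged at least 1 FPKM, and the 7 summed to 34.2 FPKM there, led by Dcn at 18.9 FPKM, against 6.19 to 8.50 FPKM in the other 7 libraries. Leukocyte markers summed to 14.95 FPKM in that library and to between 4.61 and 9.29 FPKM elsewhere. Many values of B3gnt7-/- are also given without its female library, and the mean filter, applied again to 7 libraries, then tested 2 Wnt ligand, 13 receptor and 12 other Wnt target genes.

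Smoc2 and Cd44 were the members that stood apart from wild-type in every mutant library. Smoc2 encodes a secreted calcium-binding matrix protein and is a marker of Lgr5-positive stem cells. It was at 16.1 and 16.5 FPKM in St6galnac6-/- mice, at 21.9 and 18.3 FPKM in B3galt5D116A mice, at 12.9 and 15.2 FPKM in B3gnt7-/- mice, and at 7.65 and 11.5 FPKM in wild-type. Cd44, a receptor for hyaluronan that marks crypt base cells in the epithelium and is also made by leukocytes and stroma, was at 13.6 and 13.9 FPKM in St6galnac6-/- mice, 16.2 and 17.9 FPKM in B3galt5D116A mice, 15.8 and 16.3 FPKM in B3gnt7-/- mice, and 9.67 and 12.2 FPKM in wild-type. The lowest mutant library was thus above the higher wild-type library for both genes, and the gap was narrow, 12.9 against 11.5 FPKM for Smoc2 and 13.6 against 12.2 FPKM for Cd44. All 6 mutant libraries lay above both wild-type libraries for these 2 of 10 members, as for 7.23% of the 11537 genes tested. All 6 lay below both for 0 of 10 members, against 8.32% of tested genes. The 3 mutants were compared with the same wild-type pair, so these are not separate pieces of evidence.

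**Figure D1:**
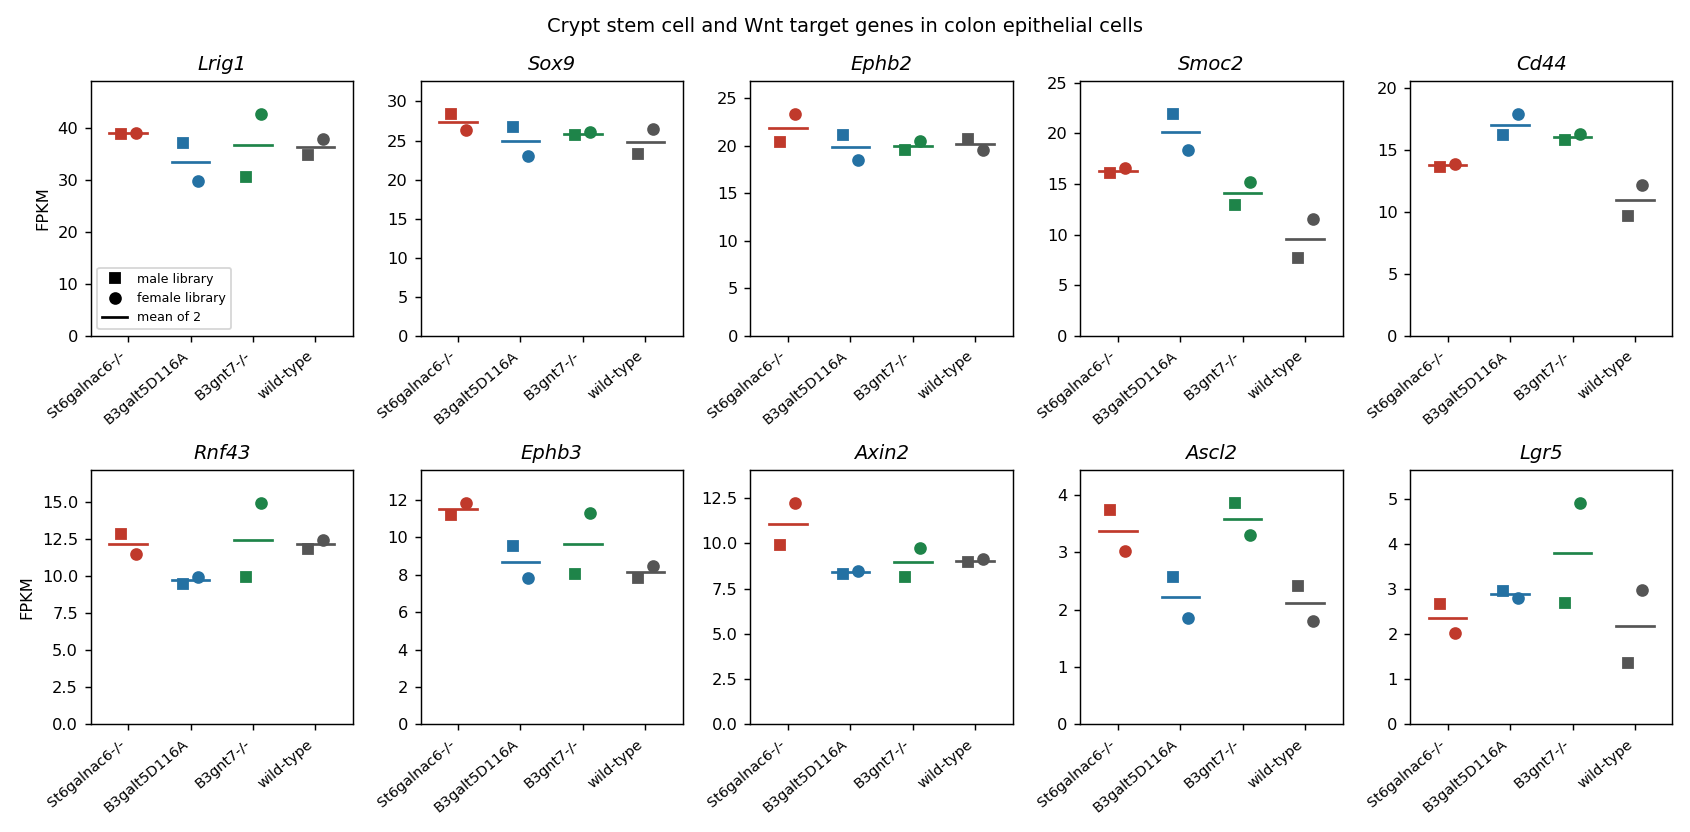
FPKM (linear axes from 0) of the 10 genes in each library, ordered by mean level, with genotypes along the horizontal axis, squares for male and circles for female libraries and a line at the mean of the 2. Smoc2 and Cd44 lie above both wild-type libraries in all 6 mutant libraries, while Ephb2, Sox9 and Lrig1 overlap wild-type in most genotypes.

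No member passed the limma test in any of the 7 comparisons made, whose calls are adjusted over all 11537 tested genes (Benjamini-Hochberg, adjusted p under 0.05). Between St6galnac6-/- and wild-type 0 of 10 members passed, against 0.0867% of all tested genes. For B3galt5D116A and B3gnt7-/- it was 0 of 10 against 0.0780% and 0.0520% of tested genes. At such rates few genes of any kind were called, so the members' differences are given with their 95% intervals, which are not adjusted for the number of genes. The test of any difference among the 4 genotypes also called 0 of 10, against 0.0867% of tested genes, with Smoc2 lowest (adjusted p = 0.456).

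The largest member difference was that of Smoc2 in B3galt5D116A, where it averaged 20.1 ± 2.52 FPKM against 9.59 ± 2.74 FPKM in wild-type (SD, n = 2 libraries each). On the log2(FPKM + 1) scale, which understates changes of low genes, this was a difference of 1.01 (SE 0.18, 95% interval 0.58 to 1.45, limma adjusted p = 0.233). In St6galnac6-/- it averaged 16.3 ± 0.330 FPKM, a log2 difference of 0.73 (interval 0.30 to 1.17, adjusted p = 0.299). In B3gnt7-/- it averaged 14.1 ± 1.57 FPKM, a log2 difference of 0.53 (interval 0.097 to 0.96, adjusted p = 0.632), or 0.48 without the B3gnt7-/- female library. The wild-type male library was the lowest of the 8. Without that library the log2 difference was 0.75 in B3galt5D116A, 0.47 in St6galnac6-/- and 0.26 in B3gnt7-/-.

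Cd44 averaged 17.0 ± 1.21 FPKM in B3galt5D116A against 10.9 ± 1.78 FPKM in wild-type, a log2 difference of 0.60 (SE 0.12, 95% interval 0.32 to 0.89, limma adjusted p = 0.253). Its log2 difference from wild-type was 0.53 in B3gnt7-/- (interval 0.24 to 0.81, adjusted p = 0.394) and 0.32 in St6galnac6-/- (interval 0.033 to 0.60, adjusted p = 0.518), the last being 0.20 without the wild-type male library. Beside the Cd44 level of B3galt5D116A, stroma markers summed to 6.90 and 6.47 FPKM in the male and female libraries against 8.50 and 6.19 FPKM in wild-type. Leukocyte sums there were 4.61 and 9.29 FPKM against 7.76 and 6.36 FPKM in wild-type. In B3gnt7-/- the log2 difference of Cd44 was 0.58 without the female library that was rich in stroma markers. Splice forms of Cd44 are not resolved by a gene-level value.

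Ascl2, the transcription factor that sets the stem cell programme, was among the 2 lowest members. It was at 3.73 and 3.02 FPKM in St6galnac6-/- mice, 2.57 and 1.86 FPKM in B3galt5D116A mice, 3.86 and 3.30 FPKM in B3gnt7-/- mice, and 2.42 and 1.81 FPKM in wild-type. Both knockouts were above wild-type without overlap and B3galt5D116A overlapped it. In St6galnac6-/- 24.1% of tested genes lay above wild-type in this way, and in B3gnt7-/- 16.0%. The log2 difference from wild-type was 0.49 in St6galnac6-/- (SE 0.15, 95% interval 0.15 to 0.84, limma adjusted p = 0.399), 0.045 in B3galt5D116A (interval -0.30 to 0.39, adjusted p = 0.915) and 0.56 in B3gnt7-/- (interval 0.22 to 0.91, adjusted p = 0.443). The last was 0.51 without the B3gnt7-/- female library. Between mutants, Ascl2 differed by -0.52 in B3galt5D116A against B3gnt7-/- (interval -0.86 to -0.17, adjusted p = 0.770), where 0 of 10 members passed against 0.00867% of tested genes. It differed by 0.45 in St6galnac6-/- against B3galt5D116A (interval 0.10 to 0.79, adjusted p = 0.917), where 0 of 10 passed against 0.0260%. Ascl2 also had the smallest p of the members between the sexes and was higher in the male library of 4 of 4 genotypes, with a male minus female log2 difference of 0.25 (interval 0.00999 to 0.50, adjusted p = 0.9998). Male against female, 0 of 10 members passed, against 0.0520% of tested genes. Axin2 and Cd44 were higher in the female library of 4 of 4 genotypes, with male minus female log2 differences of -0.14 (interval -0.35 to 0.072) and -0.13 (interval -0.33 to 0.073). The share of all tested genes with the same order in 4 of 4 genotypes was not computed, so no sex trait of these members is read from it.

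Lgr5, the R-spondin receptor that defines crypt base stem cells, was at 2.67 and 2.04 FPKM in St6galnac6-/- mice. It was at 2.96 and 2.82 FPKM in B3galt5D116A mice, at 2.71 and 4.92 FPKM in B3gnt7-/- mice, and at 1.37 and 2.98 FPKM in wild-type. Every mutant overlapped the wild-type pair. The log2 difference was 0.12 in St6galnac6-/- (SE 0.28, 95% interval -0.54 to 0.78, limma adjusted p = 0.933), 0.34 in B3galt5D116A (interval -0.32 to 0.996, adjusted p = 0.624) and 0.61 in B3gnt7-/- (interval -0.048 to 1.26, adjusted p = 0.726). Without the B3gnt7-/- female library, which held the highest Lgr5 level, it was 0.34, and without the wild-type male library, the lowest, 0.29. In B3galt5D116A the Lgr5 difference was 0.025 without the wild-type male library, 0.12 without the B3galt5D116A male library, 0.56 without the B3galt5D116A female library and 0.65 without the wild-type female library. For St6galnac6-/- it was -0.19 without the wild-type male library. The ratio of Smoc2 to Lgr5, both per kilobase, was 6.01 and 8.12 in St6galnac6-/-, 7.39 and 6.50 in B3galt5D116A, 4.78 and 3.08 in B3gnt7-/-, and 5.57 and 3.87 in wild-type. The ratio was lowest in the B3gnt7-/- female library and highest in the St6galnac6-/- female library.

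The feedback inhibitors Axin2 and Rnf43 had no mutant in which both lay above wild-type. Axin2, a scaffold of the complex that destroys β-catenin, was at 9.93 and 12.2 FPKM in St6galnac6-/- mice, 8.32 and 8.49 FPKM in B3galt5D116A mice, 8.16 and 9.75 FPKM in B3gnt7-/- mice, and 8.98 and 9.12 FPKM in wild-type. Rnf43, the ubiquitin ligase that clears Frizzled, was at 12.9 and 11.5 FPKM in St6galnac6-/- mice, 9.50 and 9.96 FPKM in B3galt5D116A mice, 9.93 and 14.96 FPKM in B3gnt7-/- mice, and 11.9 and 12.5 FPKM in wild-type. Both were below wild-type without overlap in B3galt5D116A, the mutant with the highest Smoc2 and Cd44 levels, as were 25.3% of tested genes. Axin2 was above wild-type without overlap in St6galnac6-/-, as were 24.1% of tested genes. The log2 difference of Axin2 was 0.26 in St6galnac6-/- (SE 0.13, 95% interval -0.038 to 0.55), -0.096 in B3galt5D116A (interval -0.39 to 0.20) and -0.018 in B3gnt7-/- (interval -0.31 to 0.28). That of Rnf43 was 0.00035 in St6galnac6-/- (interval -0.41 to 0.41), -0.29 in B3galt5D116A (interval -0.70 to 0.11) and 0.0059 in B3gnt7-/- (interval -0.40 to 0.41). Between St6galnac6-/- and B3galt5D116A, Axin2 differed by a log2 value of 0.35 (interval 0.058 to 0.65, limma adjusted p = 0.917). Without the B3gnt7-/- female library, the Rnf43 difference of B3gnt7-/- was -0.27. Axin1, the paralog of Axin2, averaged 18.1 ± 2.04 FPKM over the 8 libraries (SD).

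Lrig1, a transmembrane regulator of growth factor receptors that marks stem cells, was the most abundant member at 36.4 ± 4.37 FPKM over the 8 libraries (SD). It was at 38.9 and 39.2 FPKM in St6galnac6-/- mice, 37.3 and 29.9 FPKM in B3galt5D116A mice, 30.7 and 42.7 FPKM in B3gnt7-/- mice, and 34.8 and 37.9 FPKM in wild-type. Sox9, a transcription factor of stem and secretory cells, was at 28.4 and 26.3 FPKM in St6galnac6-/- mice, 26.7 and 23.04 FPKM in B3galt5D116A mice, 25.7 and 26.1 FPKM in B3gnt7-/- mice, and 23.2 and 26.5 FPKM in wild-type. St6galnac6-/- was above wild-type without overlap for Lrig1, as for 24.1% of tested genes, and no genotype stood clear of wild-type for Sox9. Their log2 differences lay between -0.12 and 0.13 in all 3 mutants. Sox9 had 95% intervals within -0.30 to 0.43 and Lrig1 within -0.54 to 0.52. Sox9 and Ephb2 were the steadiest members, with a coefficient of variation over the 8 libraries of 6.94% for each, while that of Lgr5 was 36.1%. In B3gnt7-/- the Lrig1 difference was -0.27 without the female library, the highest of the 8. The paralogs Lrig3 and Lrig2 averaged 33.3 ± 2.25 and 5.10 ± 0.348 FPKM over the 8 libraries.

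Ephb2 and Ephb3 are receptors that respond to ephrin-B ligands and keep cells sorted along the crypt. Ephb2 was at 20.4 and 23.3 FPKM in St6galnac6-/- mice, 21.1 and 18.5 FPKM in B3galt5D116A mice, 19.5 and 20.5 FPKM in B3gnt7-/- mice, and 20.7 and 19.5 FPKM in wild-type. Ephb3 was at 11.2 and 11.8 FPKM in St6galnac6-/- mice, 9.54 and 7.84 FPKM in B3galt5D116A mice, 8.02 and 11.3 FPKM in B3gnt7-/- mice, and 7.80 and 8.48 FPKM in wild-type. Ephb2 overlapped wild-type in every mutant, and Ephb3 lay above it in both St6galnac6-/- libraries, as did 24.1% of tested genes. The log2 difference of Ephb3 in St6galnac6-/- was 0.45 (SE 0.17, 95% interval 0.048 to 0.86, limma adjusted p = 0.518), and that of Ephb2 was 0.11 (interval -0.19 to 0.41, adjusted p = 0.855). Within each library Ephb2 was 1.82 to 2.66 times as abundant per kilobase as Ephb3. In B3gnt7-/- the Ephb3 difference was 0.21, or -0.030 without the female library. Of their relatives, Ephb4 averaged 32.9 ± 3.78 FPKM and Ephb6 1.62 ± 0.526 FPKM over the 8 libraries.

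**Figure D2:**
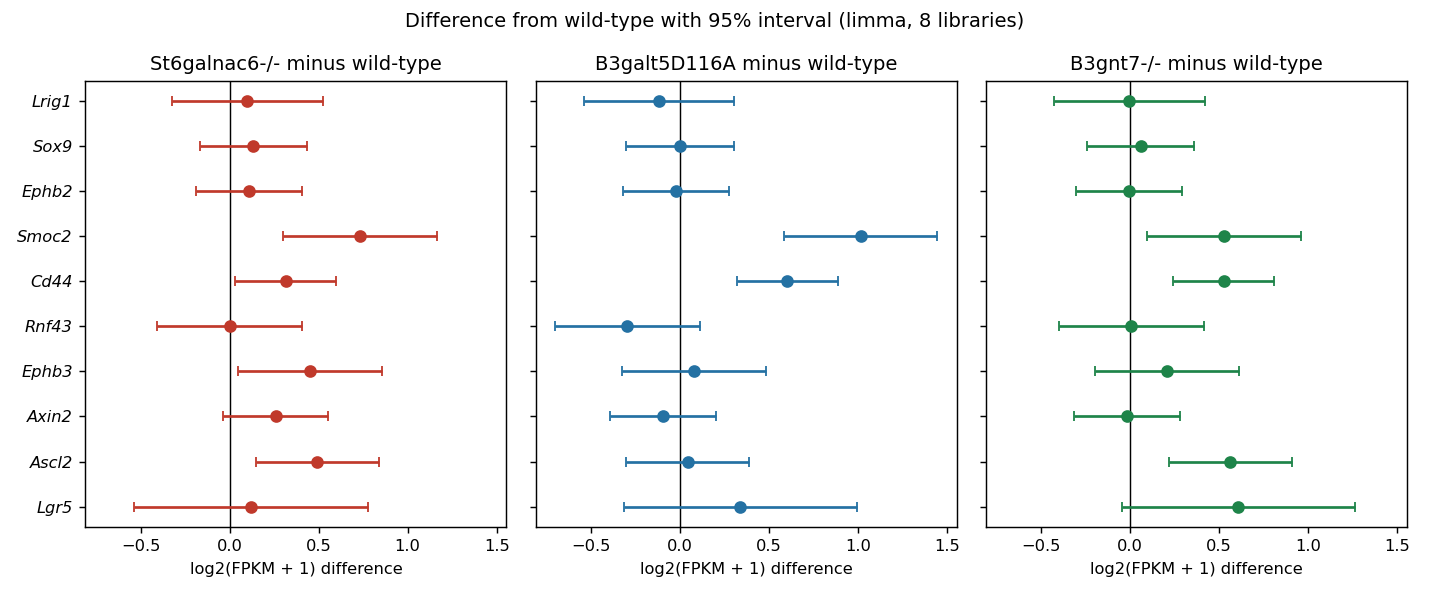
Log2(FPKM + 1) difference of each gene from wild-type (horizontal axis), with its 95% interval from limma, in St6galnac6-/-, B3galt5D116A and B3gnt7-/-. The largest is Smoc2 in B3galt5D116A at 1.01, and no gene passed after adjustment over all tested genes.

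Set against the whole table, the members' differences from wild-type were more often positive than not in St6galnac6-/-. All 10 members had a positive log2 difference there, with a median of 0.20 beside 0.0030 over all tested genes. Both libraries lay above both wild-type libraries for 6 members (Ascl2, Smoc2, Axin2, Lrig1, Ephb3 and Cd44), as for 24.1% of tested genes, and below for 0, against 23.6%. An unadjusted p under 0.05 was reached by 4 members (Ascl2, Smoc2, Ephb3 and Cd44), against 9.04% of tested genes. That count of 4 became 1 without the wild-type male, the St6galnac6-/- male or the St6galnac6-/- female library and 2 without the wild-type female library. Without the wild-type female library the median over the members was 0.35.

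In B3galt5D116A the differences went both ways. Of the 10 members 6 were positive and 4 negative, with a median of 0.023 beside 0.0012 over all tested genes. That median was -0.13 without the B3galt5D116A male library and 0.13 without the B3galt5D116A female library. Both libraries lay above both wild-type libraries for Smoc2 and Cd44 (2 members, against 26.0% of tested genes) and below for Axin2 and Rnf43 (2 members, against 25.3%). These shares are at or under those of all genes. Smoc2 and Cd44 were also the 2 members at an unadjusted p under 0.05, against 11.7% of tested genes.

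In B3gnt7-/- there were 7 positive and 3 negative differences, with a median of 0.13 beside -0.0095 over all tested genes. Both libraries lay above both wild-type libraries for 3 members (Ascl2, Smoc2 and Cd44), against 16.0% of tested genes, and below for 0, against 18.6%. The same 3 reached an unadjusted p under 0.05, against 7.17% of tested genes. Lgr5, Lrig1 and Rnf43 had their highest level of all 8 libraries in the B3gnt7-/- female library, the one with the highest stroma and leukocyte marker sums, and the part of those cells in these levels was not tested. Without that library the median over the members was -0.0015, and 2 members were at an unadjusted p under 0.05. Without the B3gnt7-/- male library the median was 0.36 and the count was 5. St6galnac6-/- against B3gnt7-/- called 0 of 10 members, against 0.0433% of tested genes.

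The members ordered by level per kilobase were Lrig1, Sox9, Ephb2, Smoc2, Cd44, Rnf43, Ephb3, Axin2, Ascl2 and Lgr5. Lrig1 was above Sox9, and Axin2 above Ascl2, in 8 of 8 libraries with no overlap of their ranges. Sox9 was above Ephb2 in 8 of 8 libraries and Ephb2 above Smoc2 in 7 of 8, the exception being the B3galt5D116A male library. Smoc2 and Cd44 (15.02 and 14.5 FPKM on average) changed places, Smoc2 being higher in 4 of 8 libraries, and so did Ascl2 and Lgr5 (2.82 and 2.81 FPKM). Ephb3 and Axin2 (9.50 and 9.37 FPKM) did not differ beyond their spread either. The wild-type libraries held the highest level of 0 of 10 members, and the wild-type male library the lowest of 4 (Lgr5, Smoc2, Ephb3 and Cd44). Which library holds the highest or lowest level was not counted over all tested genes. These counts, and that of members highest in the B3gnt7-/- female library, therefore show nothing particular to the members. Lgr5 and Ascl2 had mean levels above only 13.2% and 13.3% of tested genes, and Lrig1 above 78.1%. In libraries of whole epithelium, fewer cells of a type and less RNA per cell cannot be told apart.

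Members lie on 8 chromosomes (mm10). Cd44 is on chromosome 2 from 102811141 to 102901665, Smoc2 on chromosome 17 from 14279506 to 14404790, Lgr5 on chromosome 10 from 115450311 to 115587780 and Ascl2 on chromosome 7 from 142966829 to 142969264, all as protein-coding genes of GENCODE M21. Axin2 (from 108920349 to 108950783), Sox9 (from 112782224 to 112787760) and Rnf43 (from 87662722 to 87735539) share chromosome 11. Lgr5 overlaps A930009A15Rik, Smoc2 overlaps 4930474M22Rik and Lrig1 overlaps Slc25a26, each on the opposite strand. The library kit keeps strand, but whether the counting used it is not given in the sources used here, so reads of such pairs may not have been told apart. Rnf43 also overlaps 1110028F11Rik, and Lrig1 overlaps Mir7041, on the same strand, where strand cannot separate the reads.

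RefSeq promoter windows (GRCm38.p6, the assembly of mm10) were at hand for Ascl2, Axin2, Lrig1, Ephb2, Ephb3, Rnf43 and Cd44, and not for Lgr5, Smoc2 and Sox9. Those of Cd44, which lay above wild-type in all 6 mutant libraries, Ascl2, which did so in the 4 knockout libraries, and Axin2, which did so in St6galnac6-/- and lay below wild-type in B3galt5D116A, are printed 5′ to 3′ on the gene's strand as the 250 bases before the start site. They are chr2:102901666-102901915 (minus strand), chr7:142969265-142969514 (minus strand) and chr11:108920099-108920348 (plus strand). Capitals mark matches to the TCF core CTTTG on either strand.
Cd44: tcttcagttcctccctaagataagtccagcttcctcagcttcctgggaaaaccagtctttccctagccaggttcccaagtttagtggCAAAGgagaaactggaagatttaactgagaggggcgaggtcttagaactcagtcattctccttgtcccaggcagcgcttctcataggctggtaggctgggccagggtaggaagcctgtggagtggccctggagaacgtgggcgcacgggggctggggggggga
Ascl2: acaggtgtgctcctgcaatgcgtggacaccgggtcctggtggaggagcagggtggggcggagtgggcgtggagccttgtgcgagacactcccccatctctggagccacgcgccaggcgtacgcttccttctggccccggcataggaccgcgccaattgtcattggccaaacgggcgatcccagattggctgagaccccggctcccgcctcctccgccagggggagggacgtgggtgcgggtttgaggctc
Axin2: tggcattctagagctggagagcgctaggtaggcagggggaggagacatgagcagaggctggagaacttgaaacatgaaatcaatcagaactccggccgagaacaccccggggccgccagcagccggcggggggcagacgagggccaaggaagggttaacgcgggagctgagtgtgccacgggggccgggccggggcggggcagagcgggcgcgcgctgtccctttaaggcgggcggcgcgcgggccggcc

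The CTTTG core was found in 1 of the 8 windows of these 7 genes (Rnf43 has 2 windows), that of Cd44, where it lies on the other strand and begins 163 bases before the start site. It was found in 42.0% of 11224 windows of tested genes. The longer forms that TCF proteins prefer, which are CTTTGAA or CTTTGAT or CTTTGTA or CTTTGTT and contain the core, were in 0 of 8 windows on either strand, against 10.3% of windows of tested genes. The E-box CAGCTG, a site of proteins of the Ascl2 family that reads alike on both strands, was in 1 of 8, that of Ephb3, against 11.8%. These letters describe 250 bases next to the start only. The bases just after the start site lay near the start of a GENCODE transcript for 6 of the 7 genes checked. Window 1 of Rnf43 begins at 87662837, inside the GENCODE gene, which starts at 87662722. Not every window is therefore known to lie upstream of its gene. The Axin2 and Ascl2 windows held 24 and 19 CG pairs, against a median of 16 over tested genes, and the Cd44 window 5.

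Of the genes that produce and release Wnt ligands and R-spondins, 3 of 24 reached the mean of 1 FPKM needed for testing, namely Wls, which carries Wnt proteins to the surface, Porcn, which acylates them, and Wnt5a. Wls was at 54.3 to 63.6 FPKM over the 8 libraries. Wnt3, a ligand made by Paneth cells of the small intestine, was listed at 0 in 6 of 8 libraries and did not exceed 0.101 FPKM, and the R-spondin Rspo3 was listed at 0 in all 8. None of the 3 passed in any mutant. Porcn had the smallest p of them in St6galnac6-/- and B3galt5D116A (log2 differences of -0.096 and -0.22) and Wnt5a in B3gnt7-/- (0.32). Wnt5a averaged only 1.04 FPKM, and its highest value, 1.56 FPKM, was in the B3gnt7-/- female library. It failed the filter without that library, so its B3gnt7-/- difference is not read further.

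Among Wnt receptors 14 of 18 were tested and 0 passed in any mutant against wild-type, with medians of 0.0066, -0.099 and 0.0088 in St6galnac6-/-, B3galt5D116A and B3gnt7-/- and 7, 4 and 7 of 14 positive. The last median was -0.13 without the B3gnt7-/- female library. The R-spondin receptor Lgr4 was far above Lgr5, at 42.8 ± 6.84 FPKM over the 8 libraries (SD) against 2.81 ± 1.01 FPKM, and their relative Lgr6 was at 0.0444 FPKM or less. Fzd5, a Frizzled receptor, was at 31.6 and 26.7 FPKM in St6galnac6-/- mice, 26.1 and 25.0 FPKM in B3galt5D116A mice, 31.8 and 34.2 FPKM in B3gnt7-/- mice, and 37.0 and 39.4 FPKM in wild-type. All 6 mutant libraries were below both wild-type libraries, as for 8.32% of tested genes. The same share stands beside every later gene that was below wild-type in all 6. The log2 difference was -0.38 in St6galnac6-/- (limma adjusted p = 0.445), -0.56 in B3galt5D116A (adjusted p = 0.278) and -0.20 in B3gnt7-/- (adjusted p = 0.800). Fzd8, another Frizzled, had the smallest p of the list in B3gnt7-/- (log2 difference -0.33, adjusted p = 0.692). Znrf3, the partner of Rnf43, was at 2.67 and 2.59 FPKM in St6galnac6-/- mice, 2.16 and 1.85 FPKM in B3galt5D116A mice, 2.13 and 2.65 FPKM in B3gnt7-/- mice, and 2.13 and 2.22 FPKM in wild-type.

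Wnt inhibitors were tested for 7 of 20 genes, and 0 passed. Their median log2 difference was -0.21 in St6galnac6-/-, -0.081 in B3galt5D116A and -0.25 in B3gnt7-/- (-0.33 without the B3gnt7-/- female library), with 4, 6 and 5 of 7 negative. Tle3, a corepressor that binds TCF factors, had the smallest p of the list in all 3, at 14.7 and 12.7 FPKM in St6galnac6-/- mice, 11.99 and 12.3 FPKM in B3galt5D116A mice, 11.8 and 12.2 FPKM in B3gnt7-/- mice, and 21.4 and 18.04 FPKM in wild-type. The 6 mutant libraries lay below both wild-type libraries, with log2 differences of -0.49, -0.65 and -0.67 in that order (limma adjusted p = 0.308, 0.248 and 0.339). Among 17 tested genes of the destruction complex and signal relay and 11 TCF and β-catenin cofactors, 0 passed in any mutant. The relay genes had medians of -0.030 in St6galnac6-/-, -0.18 in B3galt5D116A and 0.0024 in B3gnt7-/-, with 6, 2 and 10 of 17 positive. The cofactors had medians of 0.026, -0.13 and -0.023 in that order, with 8, 1 and 5 of 11 positive. Without the B3gnt7-/- female library the B3gnt7-/- medians were -0.082 for the relay genes, with 3 of 17 positive, and -0.16 for the cofactors, with 3 of 11 positive. The smallest p of the relay list belonged to Fbxw11 in St6galnac6-/- (log2 difference -0.11) and to Dvl2, which passes on the Frizzled signal, in B3galt5D116A (-0.46) and B3gnt7-/- (-0.24). Among the cofactors it belonged to Tcf7l2 in St6galnac6-/- (-0.19), Ep300 in B3galt5D116A (-0.30) and Tcf7l1 in B3gnt7-/- (0.27).

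Other Wnt targets were tested for 11 of 20 genes and 0 passed, with medians of 0.14 in St6galnac6-/-, 0.058 in B3galt5D116A and -0.11 in B3gnt7-/-. Of the 11, 9, 7 and 4 were positive in that order, and the B3gnt7-/- median was 0.058 without the female library. Myc, a transcription factor that drives growth, was at 36.2 and 34.2 FPKM in St6galnac6-/- mice, 30.9 and 31.8 FPKM in B3galt5D116A mice, 32.5 and 21.9 FPKM in B3gnt7-/- mice, and 19.0 and 23.5 FPKM in wild-type. Its log2 difference was 0.71 in St6galnac6-/- (limma adjusted p = 0.342) and 0.55 in B3galt5D116A (adjusted p = 0.390), while B3gnt7-/- overlapped wild-type. Tgif1, a homeodomain repressor, was at 46.5 and 37.0 FPKM in St6galnac6-/- mice, 44.4 and 43.3 FPKM in B3galt5D116A mice, 47.5 and 34.8 FPKM in B3gnt7-/- mice, and 53.4 and 58.3 FPKM in wild-type. It lay below both wild-type libraries in all 6 mutant libraries and had the smallest p of the list in B3gnt7-/-, with log2 differences of -0.42, -0.34 and -0.45 (limma adjusted p = 0.516, 0.449 and 0.637), the last being -0.27 without the B3gnt7-/- female library. The other crypt base genes, of which 22 of 30 were tested and 0 passed, had medians of 0.011 in St6galnac6-/-, 0.011 in B3galt5D116A and -0.086 in B3gnt7-/-. Positive differences numbered 11, 12 and 10 of 22 in that order. The smallest p among them was that of Clca3b in St6galnac6-/- (log2 difference 0.82, limma adjusted p = 0.264) and of Clca4a in B3galt5D116A (1.06, adjusted p = 0.233) and B3gnt7-/- (0.79, adjusted p = 0.443).

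The ligands of Ephb2 and Ephb3 were also compared. Efnb2, an ephrin-B made towards the crypt top, was at 28.1 and 31.4 FPKM in St6galnac6-/- mice, 29.0 and 28.1 FPKM in B3galt5D116A mice, 33.8 and 32.2 FPKM in B3gnt7-/- mice, and 48.5 and 42.3 FPKM in wild-type. Every mutant library was below both wild-type libraries. The log2 difference was -0.59 in St6galnac6-/- (SE 0.12, limma adjusted p = 0.202), -0.65 in B3galt5D116A (adjusted p = 0.233) and -0.45 in B3gnt7-/- (adjusted p = 0.473). Efnb1 was at 54.7 and 50.0 FPKM in St6galnac6-/- mice, 53.7 and 45.4 FPKM in B3galt5D116A mice, 52.4 and 47.7 FPKM in B3gnt7-/- mice, and 60.9 and 57.6 FPKM in wild-type, so that it too lay below both wild-type libraries in every mutant library. Epha2, a receptor for ephrin-A ligands, was at 23.1 and 22.0 FPKM in St6galnac6-/- mice, 29.8 and 50.9 FPKM in B3galt5D116A mice, 42.4 and 26.2 FPKM in B3gnt7-/- mice, and 73.5 and 64.3 FPKM in wild-type, with log2 differences of -1.57, -0.80 and -1.02 (adjusted p = 0.175, 0.395 and 0.513). The Epha2 difference of B3gnt7-/- was -0.60 without its female library. Efna4, an ephrin-A ligand, went the other way, above both wild-type libraries in all 6 mutant libraries, as for 7.23% of tested genes. It was at 7.86 and 6.10 FPKM in St6galnac6-/- mice, 6.78 and 7.71 FPKM in B3galt5D116A mice, 6.96 and 6.35 FPKM in B3gnt7-/- mice, and 5.48 and 5.07 FPKM in wild-type. Its log2 difference in B3galt5D116A was 0.39 (adjusted p = 0.398), and that of the ephrin-A ligand Efna1 in St6galnac6-/- was 0.38 (adjusted p = 0.545). Of the 10 tested Eph and ephrin genes outside the members 0 passed in any mutant and 4, 3 and 3 were positive in St6galnac6-/-, B3galt5D116A and B3gnt7-/-, while Ephb2 itself kept within 18.5 to 23.3 FPKM over the 8 libraries.

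**Figure D3:**
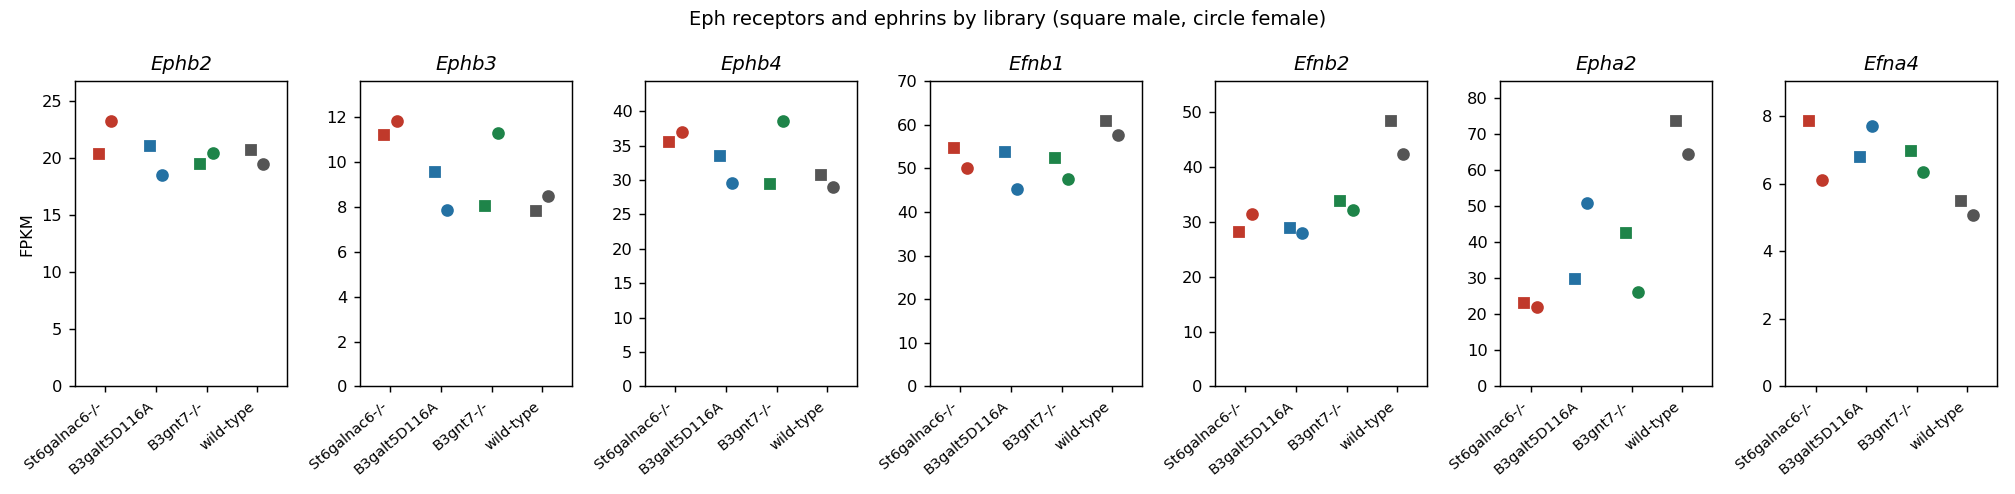
FPKM (linear axes from 0) of 3 EphB receptors, the ligands Efnb1 and Efnb2, the receptor Epha2 and the ligand Efna4 in each library, squares male and circles female. Efnb1, Efnb2 and Epha2 lie below both wild-type libraries in all 6 mutant libraries, Efna4 lies above both, and Ephb2 overlaps wild-type in every genotype. Of all tested genes, 8.32% lie below in this way and 7.23% above.

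Proliferation genes did not rank the libraries as the members did. The mean log2(FPKM + 1) level of 30 proliferation genes was 3.99 and 4.71 in St6galnac6-/- mice, 4.37 and 4.57 in B3galt5D116A, 4.46 and 3.83 in B3gnt7-/-, and 3.76 and 3.84 in wild-type. The mean of the 10 members on the same scale was 3.75 and 3.74, then 3.70 and 3.56, then 3.59 and 3.85 in the same mutants, and 3.39 and 3.56 in wild-type. The B3gnt7-/- female library was highest for the members and close to wild-type for proliferation. All 30 proliferation genes were positive in each mutant and 0 passed, with medians of 0.65, 0.74 and 0.35 in St6galnac6-/-, B3galt5D116A and B3gnt7-/-. The last was 0.88 without the B3gnt7-/- female library. Cenpf, a kinetochore protein, had the smallest p in St6galnac6-/- (log2 difference 0.74, limma adjusted p = 0.466) and Kif11, a spindle motor, in B3galt5D116A (0.84, adjusted p = 0.382) and B3gnt7-/- (0.59, or 1.07 without the female library).

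Gene lists chosen for the neighbours of the stem cells and for the cells at the crypt top were set beside these. In libraries of whole epithelium such a list does not isolate a cell type. Of 8 deep crypt secretory genes, 7, 6 and 7 were positive in St6galnac6-/-, B3galt5D116A and B3gnt7-/- and 0 passed, with medians of 0.42, 0.19 and 0.29 (the last 0.23 without the B3gnt7-/- female library). Spink4, a secreted protease inhibitor, had the smallest p in all 3. It was at 2632 and 2979.6 FPKM in St6galnac6-/- mice, 2514 and 3225 FPKM in B3galt5D116A mice, 2191 and 1869 FPKM in B3gnt7-/- mice, and 1099 and 968 FPKM in wild-type. All 6 mutant libraries were above both wild-type libraries, as for 7.23% of tested genes. The log2 differences of Spink4 were 1.44, 1.46 and 0.97 (limma adjusted p = 0.1003, 0.0972 and 0.367). Reg4, a lectin that marks these cells, was at 617 and 601 FPKM in St6galnac6-/- mice, 325 and 681 FPKM in B3galt5D116A mice, 405 and 318 FPKM in B3gnt7-/- mice, and 138 and 146 FPKM in wild-type. The log2 difference of Reg4 was 2.09, 1.72 and 1.33 in the 3 mutants in that order (limma adjusted p = 0.1003, 0.233 and 0.399). Kit, another of their markers, was at 12.7 and 12.1 FPKM in St6galnac6-/- mice, 13.9 and 10.6 FPKM in B3galt5D116A mice, 11.96 and 17.4 FPKM in B3gnt7-/- mice, and 9.40 and 14.4 FPKM in wild-type, overlapping it in all 3. Of 23 surface colonocyte genes, 22, 14 and 16 were negative and 0 passed, with medians of -0.39, -0.17 and -0.14 (the last -0.18 without the B3gnt7-/- female library). The smallest p was that of Atp12a, a proton pump subunit, in St6galnac6-/- (log2 difference -1.51, limma adjusted p = 0.131), Klf4, a transcription factor of differentiated cells, in B3galt5D116A (-0.80, adjusted p = 0.268) and Saa1, an acute-phase protein, in B3gnt7-/- (-0.91, adjusted p = 0.367). Of 9 tested genes on the BMP side, which opposes Wnt at the crypt top, 8, 7 and 6 were negative and 0 passed, with medians of -0.096, -0.23 and -0.049 (the last -0.12 without the B3gnt7-/- female library). Smad7, an inhibitor of the signal, had the smallest p in St6galnac6-/- (log2 difference -0.24). Bmp2 was at 13.8 and 13.1 FPKM in St6galnac6-/- mice, 12.3 and 8.02 FPKM in B3galt5D116A mice, 9.73 and 11.4 FPKM in B3gnt7-/- mice, and 16.9 and 15.8 FPKM in wild-type, with log2 differences of -0.27, -0.67 and -0.59 (limma adjusted p = 0.710, 0.343 and 0.563). The last difference was -0.82 without the B3gnt7-/- female library.

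**Figure D4:**
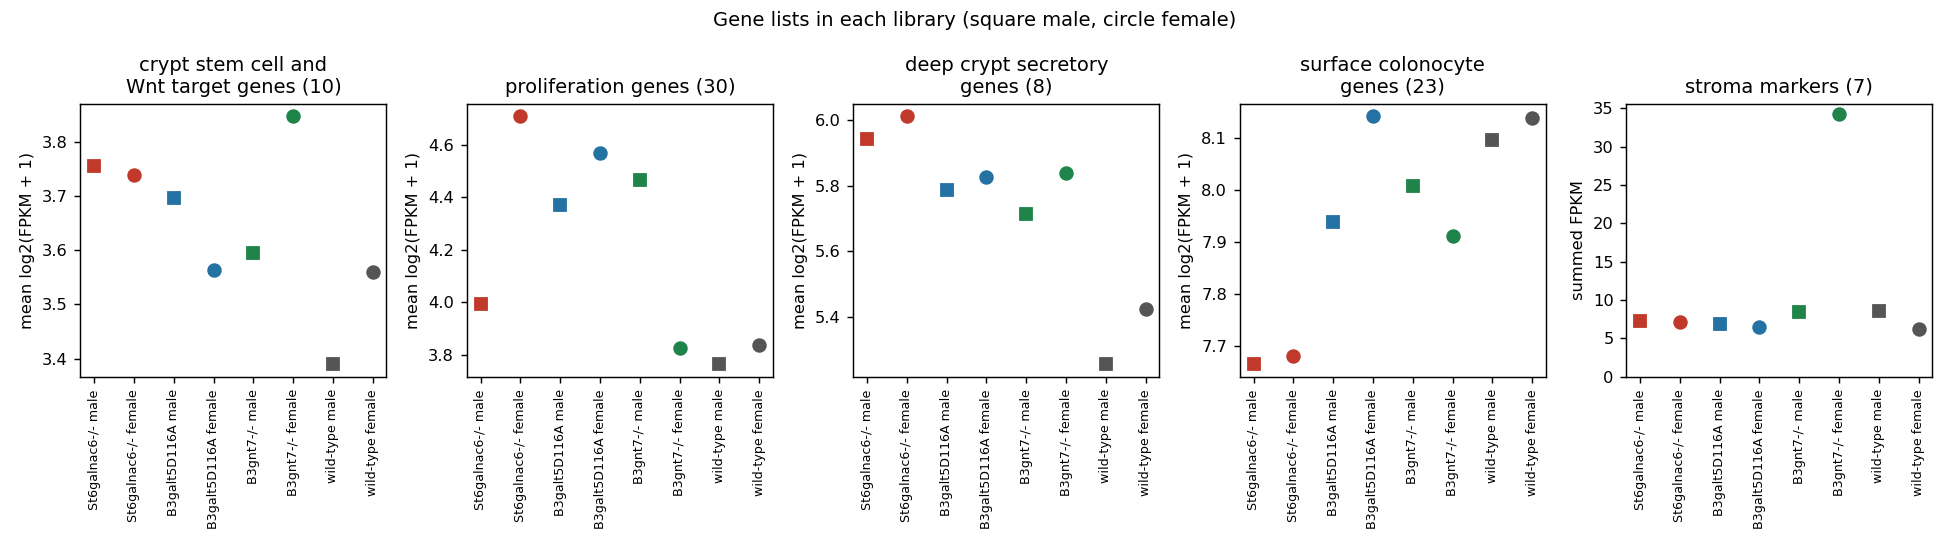
Mean log2(FPKM + 1) of the 10 members, 30 proliferation, 8 deep crypt secretory and 23 surface colonocyte genes, and summed FPKM of 7 stroma markers, in each library (squares male, circles female; the vertical axes of the first 4 panels do not start at 0). The B3gnt7-/- female library is highest for the members and for stroma markers, at 34.2 FPKM, but not for proliferation.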

How the data were processed

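Per the labels' protocols, RNA came from a miRNeasy Micro Kit and stranded mRNA libraries from a TruSeq kit. Per the submitters' processing notes, reads were handled with Cuffdiff 2.2.1, SAMtools 0.1.18, TopHat2 2.1.1 and Bowtie2 2.2.8 on mm10, and parameters are not given in the sources used here. The authors deposited FPKM values, 1 table per library, per the file headers. Counts were not used here, so no counting interval is given, and a gene listed at 0 may be a failed estimate. Relative depth was read from the most frequent ratio between libraries of values under 0.15 FPKM.

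Tests covered the 11537 genes whose mean reached 1 FPKM, all 10 members among them, on log2(FPKM + 1) with limma 3.58.1 in R 4.3.3 (trend in the prior variance, genotype and sex as additive terms, 8 libraries, 3 residual and 4.02 prior degrees of freedom, two-sided, Benjamini-Hochberg over all genes of a comparison). The spread is shared between genotypes. The fit was also run on simulated data with known shifts. Those shifts were larger than most member differences, so that run does not show whether such differences could be called. Members, 12 gene lists and tests were chosen with earlier results of these data known. All members are named, with partners and, per list and mutant, at least the gene of smallest p. Others (Wnt3, Rspo3, Kit, Epcam, Dcn) were chosen after their values were seen. Promoter windows came from RefSeq (GRCm38.p6) and positions from GENCODE M21. Alternatives were quantile normalization, median centring, pseudocounts of 0.1 or 5, testing genes without a filter or only from a mean of 5 FPKM, no sex term (between the sexes, no genotype term), no trend, the 2 genotypes compared alone, and each library left out.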

Additional observations from a re-analysis of the deposited data

Results flagged for a closer look

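Sox9 in the B3galt5D116A female library, at 23.04 FPKM, lay below the other 3 female libraries, which were close together between 26.1 and 26.5 FPKM. The wild-type male library was at a like level, 23.2 FPKM. Of 20 sets of 4 libraries of 1 sex checked in this way, this set alone was marked, and chance alone would mark about 1 in 20.

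The male and female pairs pointed in opposite directions, by more than 0.2 on the log2 scale each, for 2 of 30 differences from wild-type. Lgr5 differed by 0.63 in the male pair and by -0.39 in the female pair of St6galnac6-/- and wild-type. Rnf43 differed by -0.23 in the male pair and by 0.25 in the female pair of B3gnt7-/- and wild-type. With 1 library per genotype and sex, neither difference between the sexes was tested. In 12 others the signs were opposite with at least 1 pair under 0.2.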

How the results depend on the processing

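The count of members called was 0 in every comparison under every alternative, the smallest adjusted p of a member against wild-type being 0.057 for Smoc2 in B3galt5D116A when the 2 genotypes were compared alone. Of 504 recomputed member differences 29 changed sign, none of them past the threshold. With quantile normalization the log2 difference was -0.020 for Rnf43 in St6galnac6-/-, -0.0090 for Sox9 in B3galt5D116A, and 0.050 for Lrig1 and 0.027 for Ephb2 in B3gnt7-/-. With median centring it was -0.013 for Rnf43 in St6galnac6-/-, and 0.0058 for Lrig1 and 0.0013 for Ephb2 in B3gnt7-/-. With each library left out, where a lone library is assumed to vary like the other genotypes, the ranges that crossed 0 in St6galnac6-/- were -0.24 to 0.49 for Lgr5, -0.0051 to 0.27 for Sox9, -0.013 to 0.23 for Ephb2 and -0.19 to 0.19 for Rnf43. In B3galt5D116A they were -0.37 to 0.13 for Lrig1, -0.14 to 0.14 for Sox9, -0.14 to 0.095 for Ephb2 and -0.15 to 0.31 for Ephb3. In B3gnt7-/- they were -0.098 to 0.061 for Axin2, -0.27 to 0.26 for Lrig1, -0.079 to 0.20 for Sox9, -0.062 to 0.046 for Ephb2, -0.030 to 0.44 for Ephb3 and -0.27 to 0.28 for Rnf43. Smoc2 and Cd44 were positive in all 3 mutants under every alternative. So was Ascl2 under every alternative that tested it, though by as little as 0.0016 in B3galt5D116A. Counts over all tested genes moved more, from 0 to 134 in St6galnac6-/- (10 in the fit reported), 1 to 122 in B3galt5D116A (9), 2 to 53 in B3gnt7-/- (6), 1 to 15 between St6galnac6-/- and B3galt5D116A (3), 1 to 44 between St6galnac6-/- and B3gnt7-/- (5), 0 to 49 between B3galt5D116A and B3gnt7-/- (1), 1 to 77 for any genotype (10) and 4 to 7 between the sexes (6), and the cause was not tested. The count of members above wild-type without overlap, recomputed with alternatives added after seeing the data, was 7 in place of 6 in St6galnac6-/- with quantile normalization, and the count for all mutant libraries was 2 also without the B3gnt7-/- female library. The labels give no replicate numbers, so no paired analysis beyond the sex term was possible. With counts not used, what depth limits for each gene is unknown. Crebbp, a cofactor, was at -0.040 in B3gnt7-/- without the B3gnt7-/- female library.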
